A study of Mus musculus with 56 samples.

Results

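Ribosome profiling reads the short stretches of mRNA that ribosomes shield from an RNase, and total RNA sequencing reads the whole transcript pool. Dividing the first by the second for each gene ranks transcripts by how densely ribosomes cover them. In liver this ranking is known for mRNAs whose start is a run of pyrimidines (ribosomal proteins and elongation factors), for mRNAs with upstream open reading frames, and for ferritin mRNAs held back by iron-responsive elements. RNAs that stay in the nucleus or work without being translated should carry few ribosomes, so their levels were compared between the kinds of library.

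The comparison set the 18 liver libraries titled as ribosome-bound RNA against 18 libraries titled as total RNA that carry a liver profile. It took 36 of the 56 libraries of the series. All came from C57BL/6 mice, and no treatment or transgene is given in the labels. The ribo-titled liver libraries were 3 each at labelled ages of 32, 26, 20, 11, 3 and 1 months; titles give 10 months where the age field gives 11. The RNA-titled libraries were chosen by the level of Alb, the mRNA of serum albumin, above 10000 CPM (counts scaled to the same library total), whatever tissue their titles state. Of 28 RNA-titled libraries 18 passed, 11 titled liver and 7 titled kidney; the lowest inside had 57196 CPM and the highest outside 462 CPM. Another 7 RNA-titled libraries with liver in their titles fell outside. Ages were pooled, since age and tissue titles of the RNA-titled libraries cannot be relied on. The series describes 3 animals at each age and 2 at 32 months, so libraries may share an animal, and p-values measure the spread between libraries only.

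Total counts ran from 7985755 to 26921222 in the ribo-titled libraries and from 2551502 to 16562937 in the RNA-titled libraries. The ribo-titled libraries, which were taken by title, had Alb at 30523 to 123575 CPM; in the RNA-titled libraries the choice fixed a high level, and they ran up to 172020 CPM. As a check that did not use Alb, 11 kidney markers summed to at most 25.3 CPM in the first and 27.4 CPM in the second. Kap, an androgen-regulated kidney transcript, had a median of 0.121 and 0.780 CPM. Markers of other liver cells were present in both sets. Kupffer cell and macrophage markers (12 genes) summed to 403 to 5852 CPM in the ribo-titled and 491 to 6723 CPM in the RNA-titled libraries. A pair of liver libraries stood apart: ribo-titled replicate 1 at 3 months and RNA-titled replicate 1 titled liver at 10 months had median rank correlations of 0.859 and 0.824 with the rest of their sets, against 0.888 to 0.970 for the other 34.

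Several nuclear non-coding RNAs were far higher in the ribo-titled than in the RNA-titled libraries, and this bears on every ratio that follows. Malat1, a long non-coding RNA held in nuclear speckles, was at 325, 688 and 2378 CPM (lowest, median, highest) in the 18 ribo-titled libraries. In the RNA-titled libraries it was at 2.18, 5.47 and 13.3 CPM. Every ribo-titled library was above every RNA-titled library, for an RNA that is not translated. Rn7sk, the nuclear 7SK RNA that holds back transcription elongation, ran from 2321 to 6124 CPM in the ribo-titled and from 0.855 to 11.8 CPM in the RNA-titled libraries. Rpph1, the RNA part of ribonuclease P, ran from 4851 to 8507 and from 39.9 to 143 CPM. Rmrp, the related RNA of RNase MRP, ran from 811 to 1502 and from 12.4 to 56.8 CPM. Neat1, the scaffold RNA of paraspeckles, had medians of 47.8 and 0.517 CPM and no overlap either. None of these 5 ranges met.

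**Figure D1:**
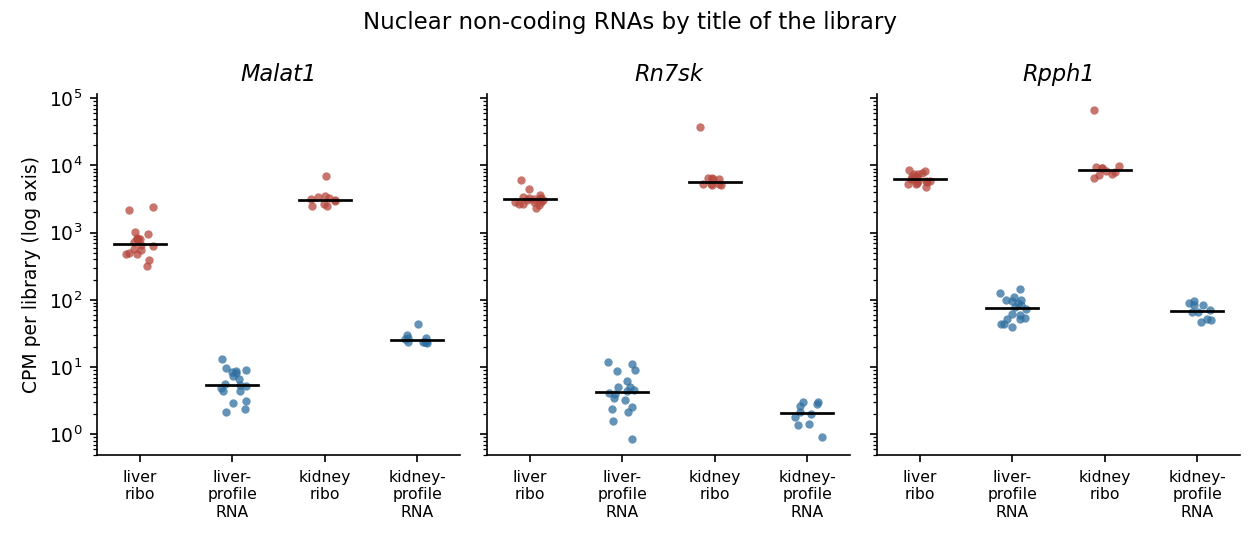
CPM of Malat1, Rn7sk and Rpph1 in each library (points, log axis) with the median (bar), in 18 ribo-titled liver, 18 liver-profile RNA-titled, 10 ribo-titled kidney and 10 kidney-profile RNA-titled libraries. All ribo-titled points lie above all RNA-titled points of the same tissue; Malat1 medians in liver are 688 and 5.47 CPM.

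Vault RNA went the other way. Vaultrc5, a short non-coding RNA of the vault particle in the cytoplasm, was at 3.89, 12.2 and 27.8 CPM in the ribo-titled libraries and at 555, 1257 and 2885 CPM in the RNA-titled libraries. Of 46 listed non-coding RNAs 38 were in the table, and 28 had a mean of 1 CPM or more in either set. The ribo-titled mean was the higher for 27 of these 28. Ribo-titled values were above all RNA-titled values for 17, beside 27.1% of all genes at that level, and below for 1, beside 4.12%. In kidney, 21 of 26 had the higher mean in the ribo-titled libraries and 15 were above without overlap, beside 30.6% of all genes there. The protocol in the labels uses ribosomal RNA depletion, not selection of poly(A), for total RNA. Whether the assay titles were exchanged was not tested, and no library was moved. The values below are therefore given as ribo-titled over RNA-titled and not read as ribosome density. If the titles were exchanged, every sign below would turn.

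Of 50222 genes, 7214 had a mean of 50 or more counts in both sets and were compared. Another 2957 reached that level in the ribo-titled libraries alone and 96 in the RNA-titled libraries alone. The rule's threshold passed Lsp1 and Hivep1 at 50 mean counts and left out Rpap1 and Arl8a at 49.9. The log2 of the mean ribo-titled CPM over the mean RNA-titled CPM had a median of 0.40, quartiles of −0.24 and 1.12 and an SD of 1.03 across genes. Ratios below are given relative to that median and called relative log2 ratios. On this scale 4951 genes (68.6%) lay within 1 of the median, and the 5th and 95th percentiles were −1.42 and 1.85.

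Most genes differed between the sets. With edgeR's quasi-likelihood test (TMM scaling, Benjamini-Hochberg over 7214 genes), 5827 genes had an adjusted p under 0.05 in either direction, which is 80.8%. With a fitted log2 difference of at least 1 as well, 1292 genes (17.9%) were called higher in the ribo-titled libraries and 958 (13.3%) lower. Ranges of 18 against 18 did not overlap for 1831 genes above (25.4%) and 374 below (5.18%). These shares and those of the calls are the background for the counts given for each group below. The split depends on the scaling: with library sizes alone the all-gene median stays at 0.40 and the counts become 2070 higher and 382 lower. Without the pair of libraries that stood apart they were 1260 and 928. Genes named below as the highest or lowest of their group by ratio were picked on these same libraries, so their liver values are a description and carry no p.

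**Figure D2:**
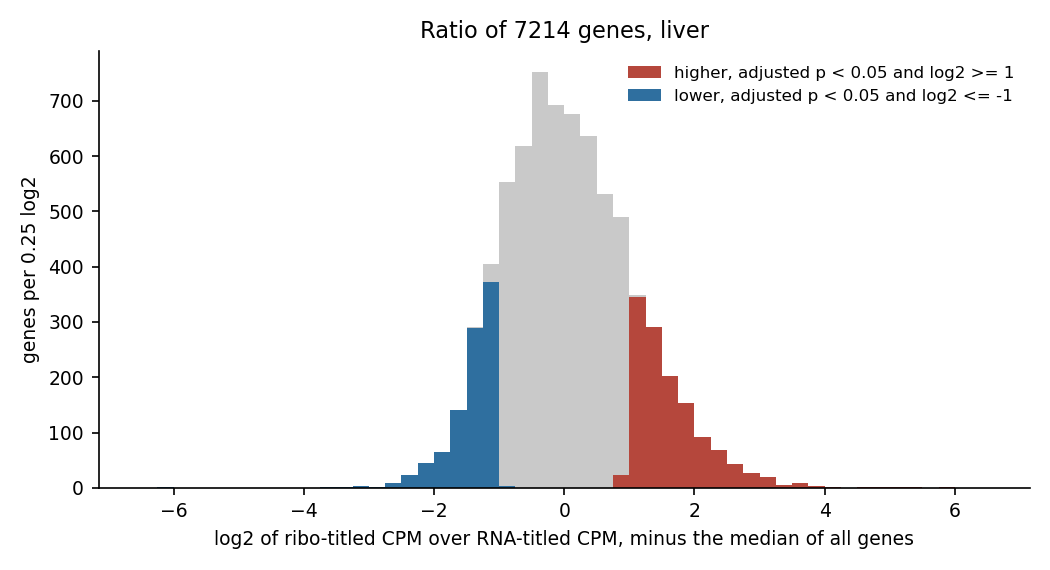
Number of genes by relative log2 ratio (log2 of mean ribo-titled over mean RNA-titled CPM, minus the all-gene median), in steps of 0.25, for 7214 genes of liver. Red marks genes called higher (1292 in all) and blue genes called lower (958 in all), and grey genes are not called. The steps end short of the lowest and highest ratios (−6.97 and 8.48), so genes at the far ends are not drawn.

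Ribosomal protein genes had the highest ratios among the groups of protein-coding genes. Of 79 genes for proteins of the cytosolic ribosome, 24 passed the count minimum in both sets, and 53 more reached it in the ribo-titled libraries alone. The 24 had a median relative log2 ratio of 2.48 (range 0.65 to 4.89); 22 were called higher and 0 lower. In all 24 the ribo-titled range lay above the RNA-titled range, beside 25.4% of all genes. Since the other genes dropped out for low RNA-titled counts, the 24 are not the whole family.

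Over the whole family, the 79 genes had a median level of 79.5 CPM in the ribo-titled libraries, with an SD of 1.53 on the log2 scale between genes. In the RNA-titled libraries the median was 2.05 CPM and the SD 2.85. Of all genes of 1 CPM or more in either set, 27.1% lay above without overlap. The mean was higher in the ribo-titled libraries for 77 of the 79 ribosomal protein genes, all 77 without overlap. Rpl24, of the large subunit, was not among them (0.0995 and 0.116 CPM). The list summed to 6906 to 10746 CPM in the ribo-titled and to 534 to 1139 CPM in the RNA-titled libraries.

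Rpsa, a protein of the small subunit, was at 170.5, 194 and 247 CPM in the ribo-titled libraries and listed at 0 in 14 of 18 RNA-titled libraries, with 0.312 CPM as its highest value. Rps13 ran from 60.9 to 99.8 CPM against 0 to 0.342 CPM, and Rpl31 from 52.4 to 85.2 CPM against 0 to 0.439 CPM. Every cell uses these genes, so a value of 0 here can be a failure to assign reads and gives no fold. At the other end, Rpl8 had medians of 237 and 115 CPM and Rps3 of 223 and 98.9 CPM. Their fitted log2 differences were 0.66 ± 0.09 (SE) and 0.83 ± 0.07, under the bound of 1.

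**Figure D3:**
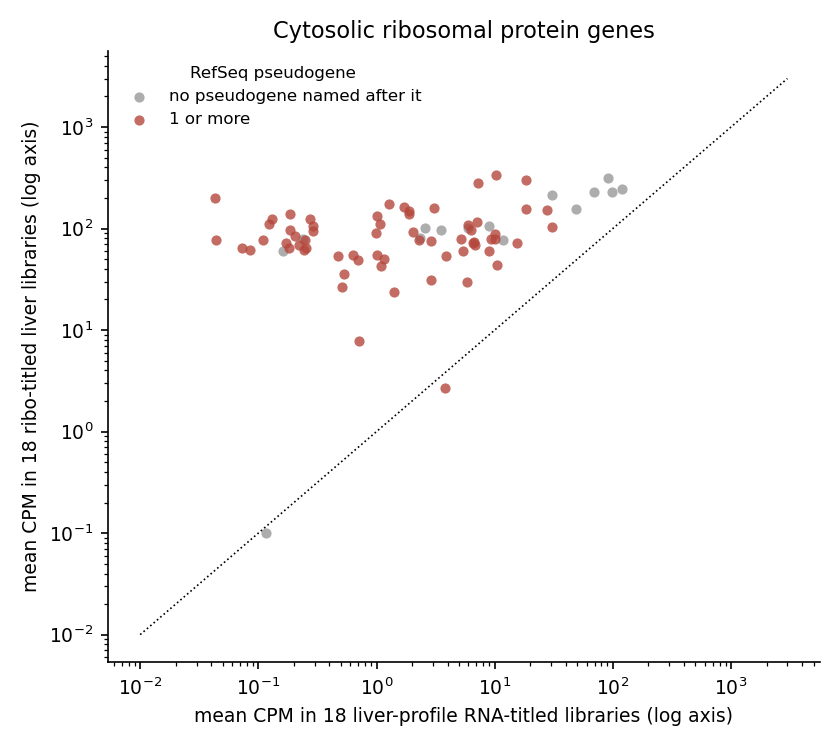
Mean CPM of 79 cytosolic ribosomal protein genes in 18 ribo-titled liver libraries (vertical) against 18 liver-profile RNA-titled libraries (horizontal), both log axes, with the line of equal levels; red genes have a pseudogene named after them in RefSeq. Medians are 79.5 and 2.05 CPM, and 77 genes lie above the line.

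Levels differed between genes with and without a pseudogene named after them. Copies under other names were not counted. RefSeq names at least 1 pseudogene after 64 of the 79 genes; these had median levels of 77.7 and 1.34 CPM, and the 15 without one had 102 and 8.96 CPM. The spread between genes was the smaller among those with a named copy, with SDs of 1.08 and 2.52 on the log2 scale. Among those without a named copy the SDs were 2.77 and 3.41. Rpl8, Rps3, Rpl4, Rps9 and Rps14, among the highest in the RNA-titled libraries, have none. Of the 24 measured genes, those without a named copy had a median relative log2 ratio of 1.35. Across all protein-coding genes, 147 with a named copy had a median of 0.47 and 36.7% called higher, and 7002 without one had −0.0024 and 17.6%. How reads that match several places were counted is not given in the sources used here. Ratios of genes with near-identical copies are uncertain, and the part played by copies was not tested.

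Many of these mRNAs hold a pyrimidine run near the annotated start, a feature that the ratio did not use. The following lines show such runs for measured genes with high and with middling ratios (5′ to 3′, RefSeq on GRCm38, run of C and T in capitals).
Rps2, chr17:24720078-24720107, plus strand: actataaattgTCCCTTCCgcggcgcctcc
Rpl26, chr11:68901579-68901608, plus strand: gcgtgtagTTCTCTTTCCTTTTgcggccat
Rps15, chr10:80292447-80292476, plus strand: cagcccgtaCTTCCTTTTCCgagtaaccgc
Rpl4, chr9:64173361-64173390, plus strand: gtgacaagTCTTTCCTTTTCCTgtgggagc
Eef2, chr10:81176634-81176663, plus strand: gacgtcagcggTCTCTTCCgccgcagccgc
Eef1a1, chr9:78481710-78481739, minus strand: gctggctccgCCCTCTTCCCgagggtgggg
Rack1, chr11:48800347-48800376, plus strand: gaggccgCTCTTTCTTTTTCTCCacagggt
Eif3f, chr7:108934404-108934433, plus strand: ttctaggCTCTCTCTCTTTCTCggcaagat
Eif3k, chr7:28981855-28981884, minus strand: ctgaaagcgCCTTTCCCTTTgccttccttg

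A run of at least 8 C or T, on the strand of the gene and from 20 bases before to 50 bases after the annotated start, was found at 1 or more starts of 28.5% of the 27025 genes with a sequence. It was found for 46 of the 58 ribosomal protein genes with a sequence (79.3%) and for 8 of 14 other mRNAs listed as of this class (57.1%). In the lines shown, the first base of the run lies from 18 bases before the annotated start (Rpl4) to base 27 after it (Rps2), so the place of the run is not shared. Among measured ribosomal protein genes, 13 with a run had a median relative log2 ratio of 2.69 and 4 without had 2.45. Among 11 measured genes of the other list the order was the reverse, 0.79 with a run and 1.40 without. Among 5657 measured genes outside the lists of such mRNAs, the medians were 0.074 with a run and −0.0086 without. The capitals mark letters and not a tested element.

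Other mRNAs of the same translational class were mixed. Of 20 listed genes 16 passed, with a median of 0.75; 6 were called higher and 0 lower. Eef1a1, which brings aminoacyl-tRNA to the ribosome, was at 1853, 1966 and 2485 CPM in the ribo-titled and at 47.9, 116 and 256 CPM in the RNA-titled libraries, without overlap. Its fitted log2 difference was 3.63 ± 0.15 (SE). Eef2, the translocation factor, ran from 1561 to 2309 and from 75.3 to 452 CPM (2.53 ± 0.16). Both have a named pseudogene. Rack1, a scaffold on the small subunit, had medians of 300.0 and 80.7 CPM. Eif3f and Eif3k, subunits of the eIF3 initiation complex, overlapped between the sets although their starts hold runs of the same kind; their relative log2 ratios were −0.0067 and −0.51.

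Initiation factors as a group lay near the middle, with a median of −0.28 over 30 measured genes, 2 called higher and 3 lower. Eif4ebp2, a repressor that binds eIF4E when mTORC1 is off, was one of the highest: 288, 373 and 534 CPM against 10.3, 17.2 and 25.3 CPM, a relative log2 ratio of 4.07. In kidney, whose libraries did not pick it, its fitted log2 difference was 3.32 ± 0.07 (SE, adjusted p = 5.1e-20, edgeR). No pseudogene is named after it. Eif4g2, a scaffold relative of eIF4G, was the other gene called higher (1.11). Eif5b, which joins the subunits, was called lower, with medians of 27.8 and 78.3 CPM and no overlap (−1.86 ± 0.08).

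Plasma proteins, the main export of hepatocytes, lay at the low side. Of 81 listed genes 79 passed, with a median of −1.01; 37 were called lower and 4 higher. The list took 179824 to 285551 CPM of the ribo-titled and 283939 to 380571 CPM of the RNA-titled libraries. Apoe, a lipoprotein ligand, was at 9051, 11531 and 17999.7 CPM in the ribo-titled and at 18910.0, 24437 and 31765 CPM in the RNA-titled libraries. The ranges did not overlap (−1.46 ± 0.10, adjusted p = 4.3e-16, edgeR). Alb, which chose the RNA-titled libraries, had medians of 70164 and 124469 CPM with overlap. Fibrinogen chains Fga, Fgb and Fgg, the lectins Mbl1 and Mbl2 and the complement regulator Cfi were all called lower, with fitted log2 differences from −1.69 to −1.01.

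The 4 genes called higher were Trf, Serpina1a, Serpina1c and Igfbp4. Trf, the iron carrier transferrin, went far against its group: 884, 1556 and 1953 CPM in the ribo-titled and 85.6, 160 and 332 CPM in the RNA-titled libraries (2.77 ± 0.13). Serpina1a, a protease inhibitor with close relatives in mouse, had medians of 1596 and 326 CPM. Its reads may be shared among those relatives.

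Subunits of the proteasome, of nuclear-encoded oxidative phosphorylation and of the mitochondrial ribosome also lay low. All 31 proteasome subunits passed, with a median of −1.05; 17 were called lower and 0 higher. Psmc6, an ATPase of the regulatory particle, was at 25.1, 36.6 and 64.0 CPM in the ribo-titled and at 117, 153 and 201 CPM in the RNA-titled libraries (−2.37 ± 0.10). Psmb7, a catalytic subunit, ran from 78.5 to 111 and from 179 to 273 CPM. Psmd2, a large scaffold subunit, lay the other way without overlap, from 133 to 223 and from 61.8 to 99.0 CPM, under the bound of 1 (0.75 ± 0.06). The SD of log2 levels between subunits was 0.669 in the ribo-titled and 0.899 in the RNA-titled libraries.

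Nuclear-encoded subunits of oxidative phosphorylation had a median of −1.08 over 71 of 78 genes, with 37 called lower and 1 higher. Ndufa5, a subunit of complex I, was at 16.9, 21.8 and 32.6 CPM against 72.3, 111 and 136 CPM, a relative log2 ratio of −2.70. Atp5h, of the ATP synthase stalk, was the gene called higher, from 107 to 156 CPM against 26.1 to 53.5 CPM (1.41 ± 0.08). The 7 measured proteins encoded by mitochondrial DNA had a median of 0.34, with 3 called higher; mt-Co1, the catalytic subunit of complex IV, had medians of 9686 and 2111 CPM. Mitochondrial ribosomal proteins had a median of −0.56 over 74 genes, with 23 called lower and 1, Mrpl30, higher. Unlike the cytosolic ribosomal proteins they have few named copies, 4 of 77, and their SD between genes was 0.970 and 1.24.

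**Figure D4:**
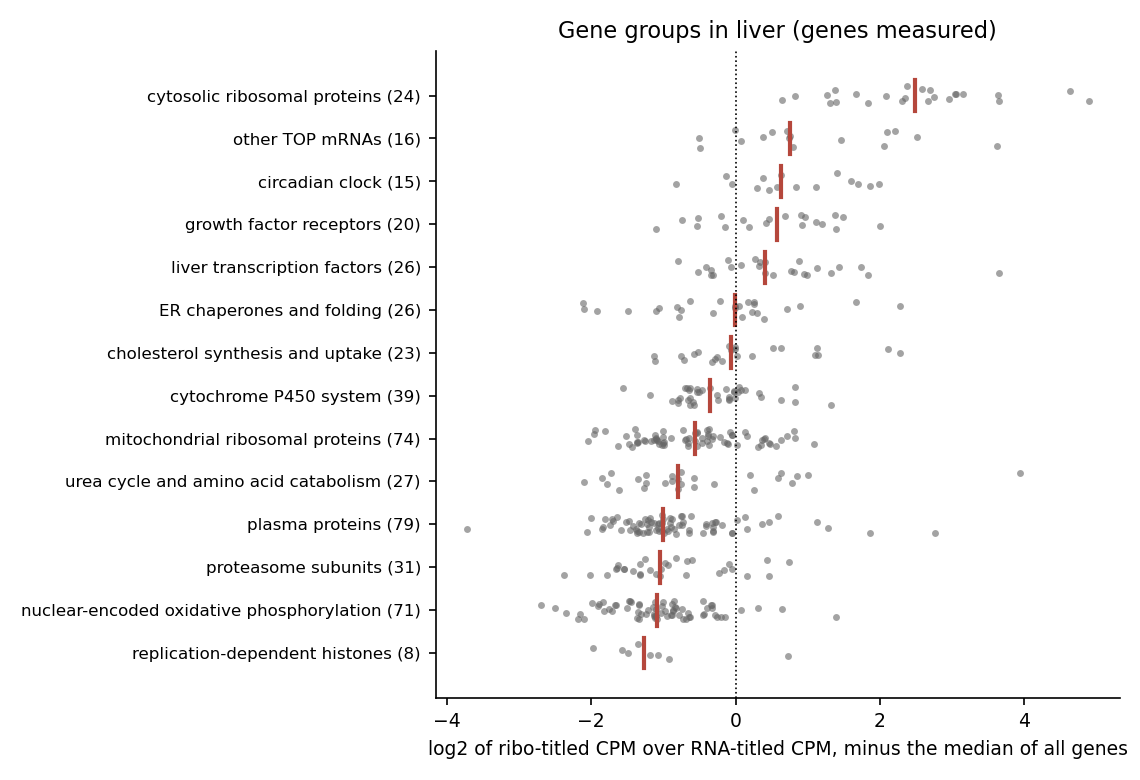
Relative log2 ratio of each measured gene (grey points) in 14 gene groups of liver, with the group median (red bar) and the number of genes measured in brackets; 0 is the median of all 7214 genes. Medians run from 2.48 for cytosolic ribosomal proteins to −1.26 for replication-dependent histones.

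Metabolic groups were spread between these poles. Lower calls, 13.3% of all genes, made up 33.3% of urea cycle and amino acid genes and 26.7% of glycolysis and gluconeogenesis. They were near or under that share for fatty acid oxidation (12.5%), cholesterol genes (8.70%) and the cytochrome P450 system (5.13%). Higher calls, 17.9% of all genes, made up 21.7% of cholesterol genes and a share under 17.9% in the other metabolic groups. Urea cycle and amino acid genes had a median of −0.79 (27 genes, 9 lower and 2 higher). Otc, the mitochondrial enzyme that makes citrulline, had medians of 337 and 1071 CPM without overlap (−2.08 ± 0.11). Ahcy, which clears S-adenosylhomocysteine, lay opposite at 384, 474 and 725 CPM against 13.7, 24.6 and 38.8 CPM, a relative log2 ratio of 3.94. Fatty acid oxidation had a median of −0.81 (24 genes, 3 lower and 1 higher) and the cytochrome P450 system −0.35 (39 genes, 2 lower and 1 higher). Cholesterol genes had a median of −0.06 (23 genes, 5 higher and 2 lower); Scap, the sterol sensor that escorts SREBP, was the highest of them with medians of 201 and 34.1 CPM. Glycolysis and gluconeogenesis had a median of −0.26 (15 genes, 4 lower and 2 higher). Gapdh, a glycolytic enzyme, had medians of 239 and 27.7 CPM and is uncertain, since copies of it are common.

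Chaperones and folding factors of the endoplasmic reticulum had a median of −0.01 over 26 genes. Of these 6 were called lower and 2 higher, and the others were not called. The lower ones were Hspa5, Hsp90b1, Calr, Pdia3, Pdia4 and Pdia6. P4hb, a disulfide isomerase and the most abundant of the 26 in the RNA-titled libraries, was not called and overlapped (medians 1489 and 1969 CPM). Hspa5, the chaperone BiP, was at 308, 446 and 660 CPM against 959, 1204 and 1972 CPM (−1.90 ± 0.10). The higher ones were Derl1 and Edem1, both of the degradation route. Edem1, which marks misfolded glycoproteins, was at 239, 333 and 397 CPM against 30.6, 49.5 and 64.0 CPM (2.29 ± 0.07). In kidney its fitted log2 difference was 2.15 ± 0.11 (SE, adjusted p = 4.3e-14, edgeR). Aminoacyl-tRNA synthetases had a median of −0.82 (19 genes, 6 lower and 0 higher).

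Further groups of protein handling and RNA turnover stand beside 17.9% of all genes called higher and 13.3% lower. Lower calls were near that share for cytosolic chaperones (14.3%), genes of the translocon and signal recognition (12%) and lysosomal proteins (11.5%). Higher calls of these groups, 4.76%, 8% and 3.85%, were under it. Cytosolic chaperones had a median of −0.49 (21 genes, 3 lower and 1 higher). Hspa8, the constitutive Hsp70, was the gene called higher, at 322, 520 and 904 CPM against 65.2, 85.1 and 131 CPM (2.17 ± 0.12), and Cct8, a chaperonin subunit, was called lower (−1.45 ± 0.07). Both genes had ranges that did not overlap. Genes of the translocon and signal recognition had a median of −0.12 (25 genes, 3 lower and 2 higher). Srpr, a receptor subunit, had medians of 182 and 43.6 CPM, while Sec62, a channel partner, had 64.1 and 140 CPM. Lysosomal proteins had a median of −0.43 (26 genes, 3 lower and 1 higher), with the protease Ctsl at medians of 530 and 1119 CPM. Genes of nonsense-mediated decay and splicing had a median of −0.47 (26 genes, 7 lower and 4 higher). Smg5, a decay factor, was among the higher ones (2.03 ± 0.08) and Luc7l3, a splicing factor, among the lower ones (−2.27 ± 0.13). In the polyamine pathway (7 genes, median 0.60, 2 higher and 0 lower) Oaz1, the antizyme made through a frameshift, had medians of 149.6 and 20.0 CPM and has a named copy.

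Several groups of regulatory genes had medians above that of all genes. Liver transcription factors had a median of 0.41 (26 genes, 6 higher and 0 lower), and the 23.1% called higher stand beside 17.9% of all genes. Hnf4a, a nuclear receptor that keeps hepatocyte identity, was at 614, 788 and 1232 CPM against 118, 180.5 and 249.3 CPM, without overlap. Clock genes had a median of 0.63 (15 genes, 6 higher and 0 lower); Clock and Per3, of the activating and repressing arms, were called higher, and Nr1d1 was not (medians 70.6 and 96.4 CPM). Growth factor receptors had a median of 0.58 (20 genes, 6 higher and 1 lower), led by Bmpr2 with medians of 137 and 22.02 CPM. Genomic span moved with the ratio: from the shortest to the longest quartile of 7149 protein-coding genes the median relative log2 ratio was −0.34, −0.093, 0.029 and 0.45. The part of span in these group medians was not tested.

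Among mRNAs under known translational control, ferritin stood out. Ftl1, the ferritin light chain, whose mRNA carries an iron-responsive element, was at 667, 1031 and 1304 CPM against 6.44, 10.9 and 52.0 CPM, and it has named copies. Fth1, the heavy chain, was at 829.2, 1042 and 1456 CPM against 103, 207 and 696 CPM, a relative log2 ratio of 1.48. Tfrc, the transferrin receptor, whose elements lie after the coding part, overlapped with medians of 26.5 and 30.2 CPM. The 8 mRNAs with such elements had a median of 0.30. Of 9 measured mRNAs with regulatory upstream frames (median 0.58), Ppp1r15b was called higher (1.77 ± 0.08) together with 1 other, and Eprs lower (−1.05 ± 0.07). Selenoproteins, which recode a stop codon, had a median of 0.42 (16 genes, 2 higher and 0 lower); 12.5% called higher is below the 17.9% of all genes. Gpx4, which clears lipid peroxides, was one, with medians of 141 and 30.8 CPM; 2 pseudogenes are named after it.

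Replication-dependent histones, whose mRNAs as a rule lack a poly(A) tail, had a median of −1.26 over 8 of 16 genes, with 6 called lower and 0 higher. Hist1h1e ran from 22.04 to 74.6 CPM against 56.3 to 144 CPM (−1.33 ± 0.14). Hist1h2bc, outside those 6, lay the other way without overlap, with medians of 53.4 and 24.4 CPM. Markers of other cell types varied between libraries. B and plasma cell markers had an SD of 2.83 between libraries around a median of −1.13. That median was −1.67 without ribo-titled replicate 1 at 3 months and −0.48 without RNA-titled replicate 1 titled liver at 10 months, the pair that stood apart. Kupffer cell and macrophage markers moved likewise, from −0.54 to −0.97 and −0.089. Erythroid markers had a median of 1.03 and an SD of 1.13 between libraries, with 4 of 6 called higher, beside 17.9% of all genes. Hbb-bs, a beta globin, had medians of 139 and 15.1 CPM.

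The most extreme protein-coding genes were taken from the 2162 whose groups did not overlap, so their liver values, the fitted ones plotted included, are a description and carry no p. The highest were Ftl1, Rps2, Rplp1, Eif4ebp2, Gna12, Ahcy, Ndst1, Chchd2, Rplp0 and Onecut2, with relative log2 ratios from 5.27 to 3.64. Gna12, a G protein alpha subunit, was at 144, 204 and 265 CPM against 5.69, 10.2 and 13.3 CPM. Ndst1, an enzyme of heparan sulfate synthesis, was at 172, 291 and 383 CPM against 5.88, 16.4 and 19.8 CPM. Onecut2, a liver transcription factor, was at 98.7, 155 and 269 CPM against 4.96, 9.69 and 15.9 CPM. Gna12, Ndst1, Eif4ebp2, Ahcy and Onecut2 have no pseudogene named after them.

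The lowest were Tec, Cfb, Wtap, Ssb, Hmgn5, Nmi, Ndufa5, Esf1, Cetn3 and Acot13, from −6.07 to −2.62. Tec, a tyrosine kinase (chr5:72755718-72868654, GRCm38), was at 9.84, 13.8 and 19.5 CPM in the ribo-titled and at 189, 626 and 1625 CPM in the RNA-titled libraries. The next gene was Cfb at a relative log2 ratio of −3.72. Cfb, complement factor B (chr17:34856374-34862514), was at 6.73, 14.0 and 27.9 CPM against 111, 148 and 268 CPM. Wtap, of the RNA methylation complex, ran from 10.4 to 24.7 CPM against 35.6 to 355 CPM. Ssb, the La protein that binds new polymerase III transcripts, ran from 6.81 to 22.8 CPM against 75.3 to 123 CPM. Among the extremes, other RefSeq genes overlap the spans of Ssb (Mettl5), Cfb (Mir6972), Hmgn5 (Gm23322), Ahcy (Gm39966) and Rps2 (Snhg9, Snora78 and Snora64). Whether reads of those genes enter the counts was not tested.

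Kidney gave a test with other libraries, 10 ribo-titled and 10 RNA-titled with a kidney profile. There 9473 genes were tested and 7652 (80.8%) had an adjusted p under 0.05; 1896 (20.0%) were called higher and 1541 (16.3%) lower. Of the 20 extremes 17 could be tested, and each was called in its liver direction, 8 higher and 9 lower. Fitted log2 differences in kidney ran from 3.24 (Rplp0) to 6.512 (Ftl1) and from −6.80 (Tec) to −1.20 (Cfb). Tec was at 9.87, 12.4 and 14.1 CPM against 511, 1096 and 2279 CPM in kidney (−6.80 ± 0.29, adjusted p = 2.9e-15, edgeR). Across 6635 genes measured in both tissues the ratios of liver and kidney had a correlation of 0.914 as a description; genes are not independent, and each tissue compares the same kinds of library. Ahcy, Onecut2 and Hmgn5 had too few counts in kidney. The ribo-titled kidney libraries were labelled 3, 20 and 32 months, and the RNA-titled ones of a kidney profile 1 to 32 months. Without the libraries that stood apart, 1 of them in kidney, all 17 were still called.

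**Figure D5:**
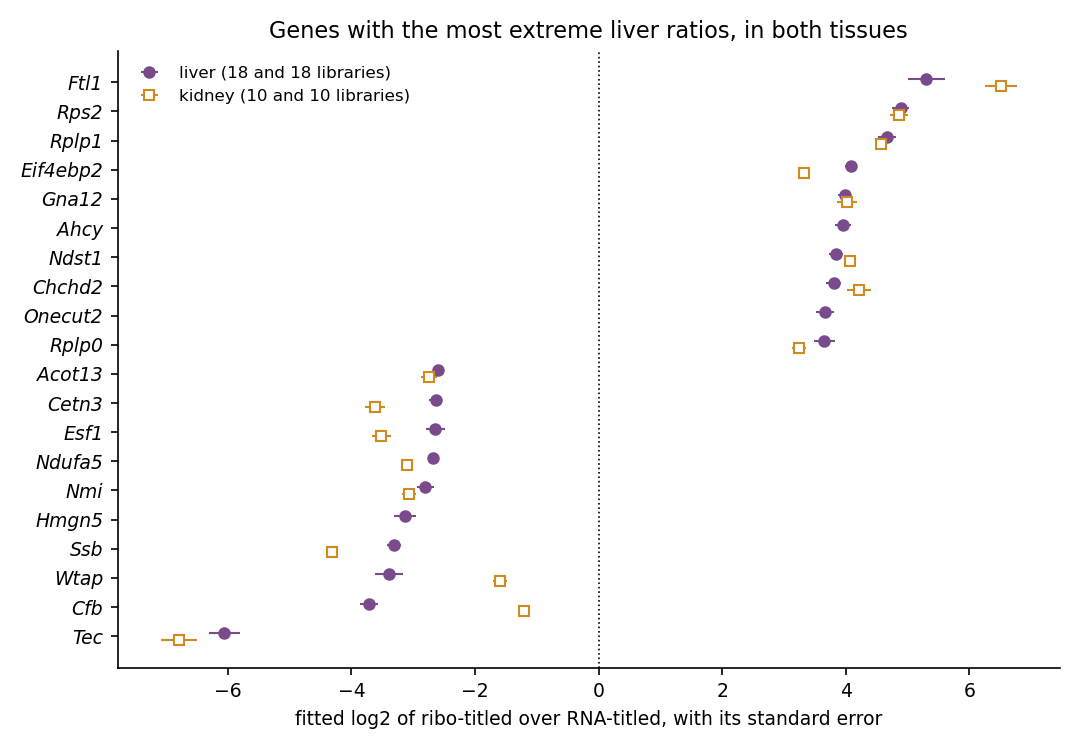
Fitted log2 difference of ribo-titled over RNA-titled libraries with its standard error for the 10 highest and 10 lowest genes of liver, in liver (filled circles, 18 and 18 libraries) and kidney (open squares, 10 and 10). The 17 genes measured in kidney lie on the same side of 0 in both tissues, and Cfb and Wtap lie closer to 0 in kidney, at −1.20 and −1.60.

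The size of the difference was not the same in both tissues. The interaction of assay title and tissue had an adjusted p under 0.05 (edgeR) for 9 of the 17, beside 34.7% of 6635 genes. The 17 were chosen by their liver ratios, which enter this difference, so the count is a description and not a test. Of these 9, Cfb differed most: its ratio was 2.67 ± 0.19 log2 units (SE) lower in liver than in kidney, where it was at 34.1, 38.4 and 46.5 CPM against 51.6, 82.8 and 94.96 CPM. Group medians kept their side in kidney for the larger groups: 2.25 for 33 cytosolic ribosomal proteins, −1.30 for 45 plasma proteins, −1.20 for 31 proteasome subunits and −1.04 for 73 genes of oxidative phosphorylation.

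By labelled age, groups ranged to different degrees. The median level of the ribosomal protein genes in a ribo-titled library, on log2(CPM + 1) and centred on the library's median gene, exceeded the mean of the RNA-titled libraries by 2.25 to 2.64 across the 6 ages (3 libraries each). For plasma proteins the same value ran from −1.11 to −0.69 and for oxidative phosphorylation from −1.63 to −0.97. Markers of other cells ranged more widely: erythroid markers from 0.031 to 2.02, B and plasma cell markers from −3.29 to 0.68, stellate cell and matrix markers from −1.31 to 0.70 and Kupffer cell and macrophage markers from −1.52 to 0.088. The highest B and plasma cell value and the highest Kupffer cell value were at 3 months, with SDs of 1.82 and 1.24 between its 3 libraries. Replicate 1 at that age is the ribo-titled library that stood apart. The next highest Kupffer cell value was −1.06, at 32 months. Age labels are in doubt, so no comparison between ages was made.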

How the data were processed

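Lysates of liver and kidney were split, per the labels' protocols, between footprints (RNase T1 and S7) and total RNA (ribosomal RNA removed, strand-specific kit). What the authors deposited are raw read counts by gene in 56 libraries, not scaled in any way. The submitters' processing notes name Cutadapt 1.14, STAR 2.5.3 and mm10; the counter, the annotation and the treatment of reads with several matches are not given in the sources used here.

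CPM are counts over the library's total. Ratios are log2 of mean CPM over mean CPM for genes with 50 or more mean counts in both sets. Counts were tested with edgeR 4.0.16 in R 4.3.3 (robust glmQLFit and two-sided glmQLFTest on TMM-scaled counts, Benjamini-Hochberg, threshold 0.05), with no covariate, and a call also needed a log2 difference of 1. Errors (SE) are the absolute log2 difference over the square root of F. The fit was tested on simulated data. Tables used Python 3.11.15. Sequences, gene spans and named pseudogenes came from RefSeq on GRCm38; symbols were matched for 49998 of 50222 identifiers.

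Members, gene lists and rules were chosen with earlier results of these data known. The rule names the 10 highest and 10 lowest protein-coding ratios without overlap, and for each list the most abundant and most extreme members; further members (Fga, Fgb, Fgg, Mbl1, Mbl2, Cfi, Serpina1a, Serpina1c, Igfbp4, Hnf4a, Clock, Derl1, Calr, Pdia3, Pdia4, Pdia6, Eif4g2, Eif3f, Rack1 and ribosomal proteins at the ends of the range) were named after their values were seen. Alternatives were RLE and library-size scaling, DESeq2 1.42.0, glmTreat, other count minimums, RNA-titled libraries by title, protein-coding genes, other averaging, a replicate block and each library left out; 4 more were added after seeing the data. Some genes are not reported here.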

Additional observations from a re-analysis of the deposited data

Results flagged for a closer look

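In kidney, values far from the other 9 libraries of a set were looked for in the 17 extremes and 6 non-coding RNAs, in 46 sets of 10; chance gives about 1 in 20. There were 20 such values, and 15 of them were of the ribo-titled kidney replicate 2 at 3 months. This library was high for Rpph1 (67058 CPM, others 6586 to 9737), Rn7sk (36818 CPM, others 5147 to 6627), Rmrp (4031 CPM), Malat1 (6981 CPM), Neat1 (153 CPM), Vaultrc5 (33.3 CPM), Ftl1 (1885 CPM), Rps2 (598 CPM), Gna12 (492.8 CPM), Rplp0 (782 CPM) and Esf1 (6.94 CPM). It was low for Chchd2 (54.5 CPM), Ndufa5 (20.4 CPM), Cetn3 (2.02 CPM) and Acot13 (23.99 CPM). Its median rank correlation with the other ribo-titled kidney libraries was 0.845, against 0.971 to 0.986 among the rest. The RNA-titled library with a kidney profile titled liver replicate 1 at 1 month was low for Cfb (51.6 CPM), Ndufa5 (220 CPM) and Cetn3 (50.03 CPM). RNA-titled kidney replicate 2 at 3 months was high for Malat1 (44.6 CPM) and Esf1 (55.3 CPM).

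The extremes were chosen by their liver ratios, which enter the comparison of tissues below, so its p-values for them are a description. Liver and kidney differed in the ratio by the interaction of assay title and tissue (edgeR, adjusted p under 0.05 over 6635 genes) for 9 of 17 extremes. As liver minus kidney log2 differences these were −2.67 for Cfb, −1.95 for Wtap, −1.36 for Ftl1, −0.55 for Chchd2, −0.39 for Ndst1, 0.61 for Eif4ebp2, 0.71 for Esf1, 0.83 for Cetn3 and 0.85 for Ssb. Without the 3 libraries that stood apart, 8 remained under 0.05; Ndst1 did not, with an adjusted p of 0.0318 before and 0.0543 after (edgeR). Igf1r, the receptor of insulin-like growth factor, was called lower in liver (medians 8.34 and 12.7 CPM) and higher in kidney (588 and 182 CPM). Its liver minus kidney difference was −2.80 ± 0.35 (SE, adjusted p = 1.0e-08, edgeR), and it was picked out after its values were seen.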

How the results depend on the processing

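Among the alternatives run, the number of genes called either way moved most with the count minimum and glmTreat, and the split into higher and lower most with library sizes alone. Higher and lower calls (1292 and 958) became 2070 and 382 with library sizes alone, 2137 and 1621 with a minimum of 10 mean counts, 482 and 330 with 200, and 5941 and 4516 with no filter beyond 1 count. Lower calls became 608 with glmTreat and 1452 with the 18 RNA-titled libraries titled liver taken as labelled, where 7 carry a kidney profile. Genes called either way (5827) became 2524 with a minimum of 200, 15265 with no filter and 1633 with glmTreat. RLE gave 1202 and 1063, DESeq2 1204 and 1060. Leaving out 1 library at a time gave 1253 to 1320 higher, 904 to 994 lower and 5639 to 5914 either way. The median of cytosolic ribosomal proteins (2.48) became 2.89 with a minimum of 10, 1.65 with 200, 4.70 with no filter and 1.35 for members without a named pseudogene. With a minimum of 200, other TOP mRNAs (0.75) became 1.04 and proteasome subunits (−1.05) −0.79. With libraries as labelled, plasma proteins (−1.01) became −0.017, mitochondrial ribosomal proteins (−0.56) −0.86 and liver transcription factors (0.41) 0.76. No named extreme changed sign under the alternatives in which it had a value. The extremes were picked for large ratios without overlap on these same libraries, so most alternatives could hardly turn a sign. With a minimum of 200, none of the 10 highest had a value. Their RNA-titled mean counts ran from 56.7 (Rps2) to 187 (Ahcy). Of the 10 lowest, only Cfb, Wtap, Ndufa5 and Acot13 had a value there. For these ratios, library sizes alone are the main setting itself and could not differ. Libraries of 1 title did not deviate together (11 pairs, correlations from −0.459 to 0.136); a replicate block on them gave 1271 and 956 calls, and the same libraries without the block 1259 and 999. Counting error limits genes near 50 counts, and genes under it in one set have no ratio here.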
